A study of Mus musculus with 12 samples.

Results

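Splenic regulatory T cells (Treg) from mice given intravenous immunoglobulin (IVIg) after depletion of their Treg were compared with Treg from mice given IVIg without depletion. The comparison took 8 of the 12 arrays of the study, chosen by their titles: the 4 labelled iTreg against the 4 labelled e_iTreg. All 12 samples were flow-sorted from spleens of DEREG mice sensitised and challenged with ovalbumin, an allergen model of the airways. In the iTreg group diphtheria toxin (DTx, 40 ng/g) came before IVIg at 2 g/kg. The e_iTreg group had IVIg at 2 g/kg and no DTx, and by its labels holds endogenous Treg together with induced ones. In the other 4 arrays, eTreg, human serum albumin (HSA, 2 g/kg) replaced IVIg and no DTx was given, and they are used here only where a value needs them. Each array was made from 2 ng of RNA, and the series design calls the 4 arrays of a group biological replicates, so each p-value is read against the scatter of these 12 samples.

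The design limits what the groups stand for. The growth protocol is worded alike for all samples and places DTx before either protein, while the series design gives DTx to iTreg alone, and that is followed here. No group with DTx and without IVIg was analysed here, so depletion itself and depletion followed by IVIg cannot be told apart. In bulk samples of sorted cells, fewer cells of a type and less RNA per cell cannot be told apart either.

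Treg hold down immune responses and depend on the transcription factor Foxp3. DEREG mice carry the DTx receptor and a green fluorescent protein under the control of Foxp3, so that the toxin removes cells that express it. Whether the Treg sorted later were spared by the toxin, came back or formed anew was not tested here. Treg in a resting state resemble naive T cells, while effector Treg divide, leave lymphoid organs and take up parts of the programmes of the helper cells they restrain. IVIg is pooled human IgG given in high doses against inflammatory disease.

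Values are log2 expression levels after robust multi-array averaging (RMA), with the 4 arrays of a group in the order of replicates 1 to 4. Differences are iTreg minus e_iTreg on that log2 scale, ± SE from a limma model over all 3 groups, with n = 4 arrays a group. "Rose" and "fell" are used for genes with a Benjamini-Hochberg adjusted p under 0.05 over all 23521 probe sets with 1 gene symbol. In iTreg 1526 probe sets rose and 1117 fell, and 306 of the rises and 48 of the falls were over 2-fold. With 1 probe set for each of 22180 genes, 6.61% of genes rose and 4.88% fell. The split depends on the scale: rises made up 57.7% of the calls, and 79.7% once each array was centred on its own median, with 2023 higher and 516 lower. Where the text names genes whose call ended when a single array was left out, the highest adjusted p over the 12 such fits stands in brackets. All 4 iTreg arrays lay above all 4 e_iTreg arrays in 7.74% of genes and below them in 9.18%.

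**Figure D1:**
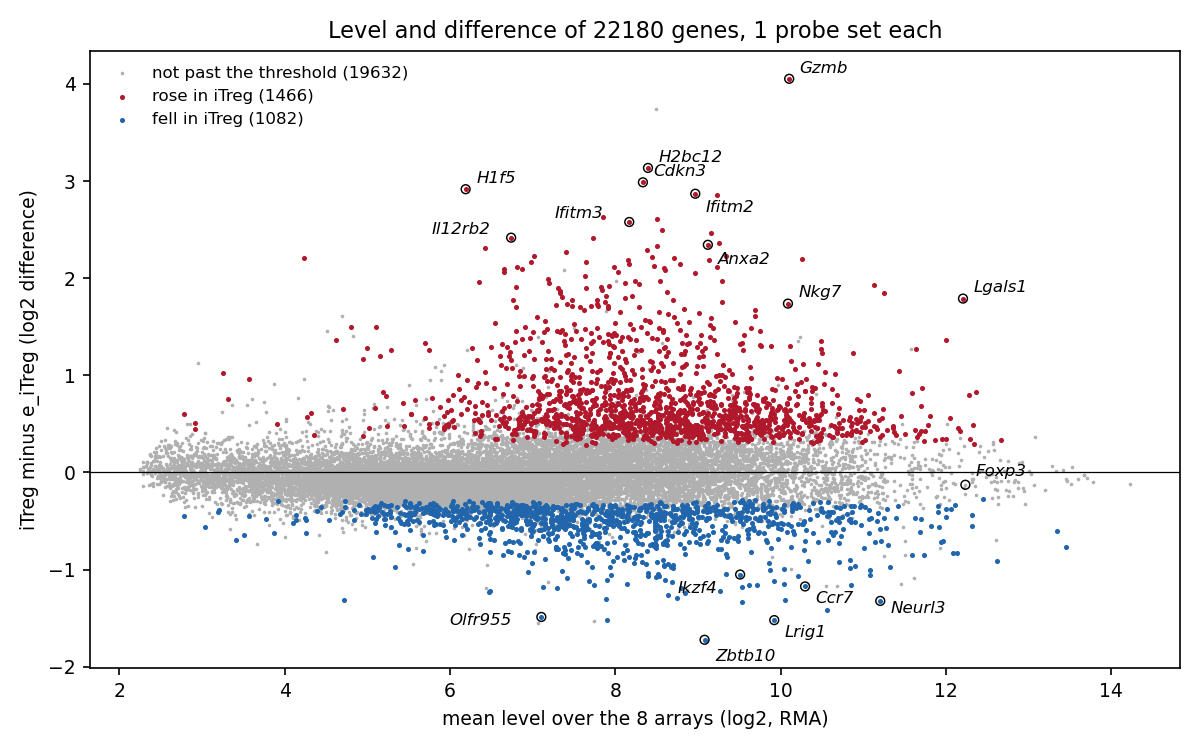
Each point is 1 of 22180 genes, with its mean level over the 8 arrays (log2) on the x axis and iTreg minus e_iTreg (log2 difference) on the y axis. Red points rose and blue points fell at an adjusted p under 0.05, and the circled genes are described in the text. The rises reach 4.05 (Gzmb), while the largest fall among circled genes is 1.72 (Zbtb10).

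The 2 groups did not overlap on the first principal component of the 8 arrays, which held 46.1% of the variance, with e_iTreg between 5.89 and 37.1 and iTreg between -29.8 and -14.0. Replicate 2 of e_iTreg and replicate 2 of iTreg were the nearest to the other group. Correlations between arrays ran from 0.979 to 0.991 within iTreg, from 0.984 to 0.991 within e_iTreg and from 0.967 to 0.987 between the groups. Some arrays stood apart in genes outside the sorted lineage: iTreg replicate 4 in plasma cell and myeloid markers, and e_iTreg replicate 4 in B cell markers. The mean of 3 Y-linked genes was 7.50, 7.42, 8.12 and 9.09 in e_iTreg and 7.79, 7.35, 6.54 and 4.84 in iTreg, and Xist, the X-inactivation transcript, was 11.07, 10.97, 10.26 and 5.82 in e_iTreg and 10.56 to 11.25 in iTreg. With the Y-linked mean as a covariate 929 probe sets were higher and 448 lower. Without the 3 arrays that carried the signal of 1 sex (e_iTreg replicate 4, iTreg replicate 4 and eTreg replicate 3), a fit chosen after seeing the data, 747 were higher and 323 lower. Of these arrays e_iTreg replicate 4 was low in Xist, and iTreg replicate 4 and eTreg replicate 3 were low in the Y-linked mean. The other arrays carried both signals, and the labels do not say whether animals were pooled. Among fits that left out 1 array, rises were fewest without e_iTreg replicate 4 (1019), and falls went below 1117 by over 1.5 times without e_iTreg replicate 4 (597), e_iTreg replicate 3 (618), iTreg replicate 1 (649) or e_iTreg replicate 1 (695).

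The label of the sorted cells was checked first. Foxp3 was at 12.36, 12.19, 12.08 and 12.56 in e_iTreg and at 11.84, 12.16, 12.26 and 12.43 in iTreg, near the top of the scale in all 8 arrays. The groups overlapped, and the difference was -0.13 ± 0.13 with a 95% interval of -0.41 to 0.15 (adjusted p = 0.567). The IL-2 receptor chain Il2ra (-0.02 ± 0.14), the inhibitory receptor Ctla4 (-0.15 ± 0.12) and the Treg transcription factor Ikzf2 (-0.09 ± 0.10) did not pass either. Of 10 T cell identity genes 1 rose, the surface glycoprotein Thy1 (0.70 ± 0.16), while Cd3e and Cd4 differed by 0.07 ± 0.10 and 0.12 ± 0.09.

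Within the Treg core list the members moved both ways. Of 20 measured genes 2 rose and 6 fell, with a median difference of -0.11 beside -0.07 over all probe sets. Ikzf4, which encodes Eos, a partner of Foxp3 in gene silencing, was at 9.78, 9.77, 10.26 and 10.34 in e_iTreg and at 8.85, 9.09, 9.15 and 8.85 in iTreg. Every iTreg array lay below every e_iTreg array, and Ikzf4 fell by 1.05 ± 0.14 (adjusted p = 0.000859). Lrrc32, known as GARP, which holds latent TGF-beta on the Treg surface, was at 10.81, 10.68, 10.93 and 11.25 in e_iTreg and at 9.94, 10.21, 10.15 and 10.61 in iTreg, again without overlap, and it fell by 0.69 ± 0.18 (adjusted p = 0.0223). The ectoenzyme Nt5e (CD73), which makes adenosine, fell by 0.61 ± 0.12, the folate receptor family member Izumo1r by 0.46 ± 0.11 and Swap70 by 0.42 ± 0.10. Plagl1, a zinc finger factor, fell by 1.26 ± 0.35, with iTreg replicate 4 at 6.97 far below the other 3. The rises were Socs2, a feedback inhibitor of cytokine signalling (1.13 ± 0.19), and the actin-capping Capg (0.53 ± 0.12). A second probe set of Socs2 gave 0.30 ± 0.10 (adjusted p = 0.0578) and one of Plagl1 -0.34 ± 0.20 (adjusted p = 0.296), and neither passed. Nrp1, a receptor found on thymus-derived Treg, was lower in every iTreg array but did not pass (-0.38 ± 0.12, adjusted p = 0.0624). The calls of Lrrc32 (0.0736) and Plagl1 (0.0884) each ended when any 1 of 4 arrays was left out, e_iTreg replicates 3 and 4 among them. With the plasma cell marker mean as a covariate 1 member of the list was higher and 2 were lower. The counts were the same without the arrays of 1 sex. Nt5e, Izumo1r and Capg lost their calls in both of these fits.

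Genes of effector Treg were higher. Of 28 measured members 12 rose and none fell, with a median of 0.65, against 6.61% of all genes that rose. Anxa2, a calcium-dependent membrane-binding protein, was at 8.03, 8.88, 7.66 and 7.22 in e_iTreg and at 10.59, 10.21, 10.24 and 10.13 in iTreg. The lowest iTreg array stood above the highest e_iTreg array, and Anxa2 rose by 2.34 ± 0.31, or 5.08-fold (adjusted p = 0.000859). Havcr2, the inhibitory receptor Tim-3, was at 5.62, 6.43, 5.25 and 5.12 in e_iTreg and at 7.84, 6.99, 7.56 and 8.42 in iTreg and rose by 2.10 ± 0.34. Lgals1 (galectin-1) rose by 1.79 ± 0.34, the intermediate filament gene Vim by 0.91 ± 0.16, and Lag3, a receptor for MHC class II, by 0.95 ± 0.17. A second probe set of Vim did not pass (0.27 ± 0.09, adjusted p = 0.0707). Prdm1, which encodes Blimp-1, a transcription factor of effector Treg and of plasma cells, was at 8.07, 8.52, 7.91 and 7.54 in e_iTreg and at 9.08, 8.77, 8.59 and 9.38 in iTreg and rose by 0.94 ± 0.19. The costimulator Icos rose by 0.80 ± 0.21, and Il10, the suppressive cytokine, was higher by 0.85 ± 0.40 but did not pass (adjusted p = 0.187). The effector rises numbered 6 without the 3 arrays of 1 sex and 8 with the Y-linked covariate. Those of Icos (0.0859) and Batf (0.08) ended when any 1 of several arrays was left out, e_iTreg replicate 4 and iTreg replicate 4 among them.

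**Figure D2:**
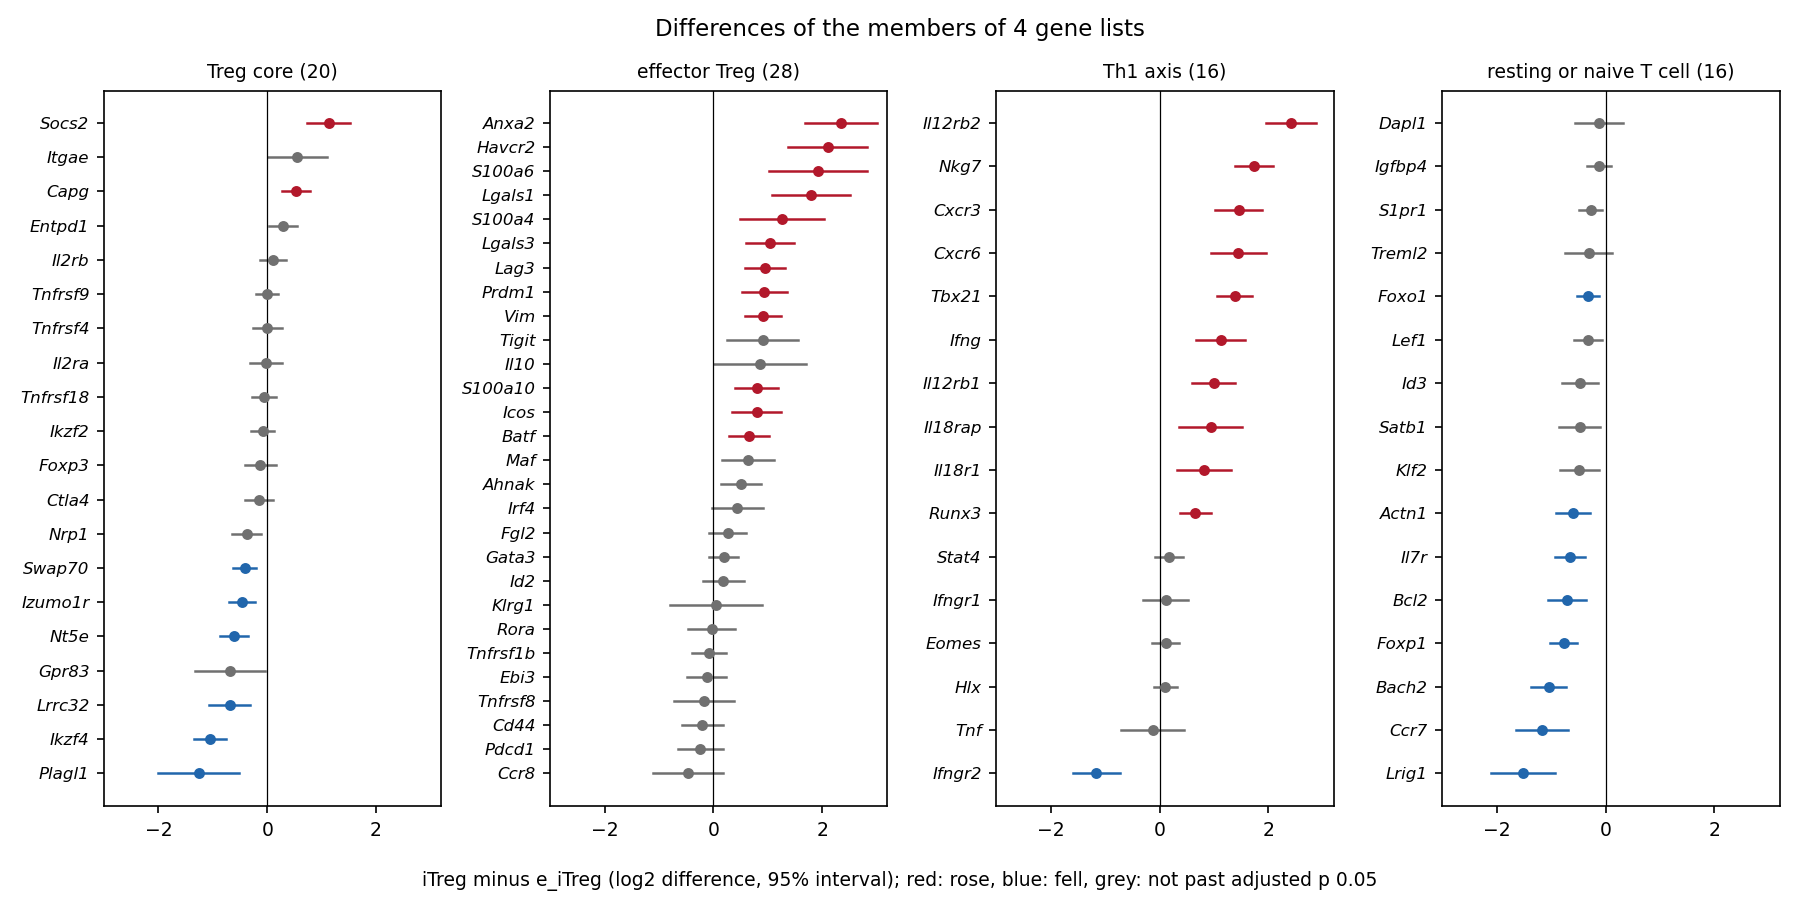
Dots are iTreg minus e_iTreg (log2 difference) and lines are 95% intervals for the measured members of 4 gene lists, with the number of members in brackets. Red genes rose, blue genes fell and grey genes did not pass an adjusted p of 0.05: 12 of 28 effector Treg genes are red and none blue, and 8 of 16 resting T cell genes are blue and none red.

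Type 1 helper (Th1) genes rose in larger part. Of 16 members 10 rose and 1 fell, with a median of 0.88. Il12rb2, the signalling chain of the IL-12 receptor, was at 5.67, 5.21, 5.67 and 5.58 in e_iTreg and at 8.26, 7.25, 7.76 and 8.53 in iTreg. The e_iTreg arrays lay within a narrow band and the iTreg arrays well above it, and Il12rb2 rose by 2.42 ± 0.22 (adjusted p = 0.000116). Tbx21, which encodes T-bet, the master factor of Th1 cells and of the Treg that restrain them, was at 7.79, 7.72, 7.85 and 7.65 in e_iTreg and at 9.53, 9.06, 9.09 and 8.85 in iTreg and rose by 1.38 ± 0.15 (adjusted p = 0.000383). Its target Cxcr3, a chemokine receptor, was at 9.09, 9.55, 8.77 and 8.69 in e_iTreg and at 10.62, 10.40, 10.51 and 10.38 in iTreg and rose by 1.45 ± 0.21. The Th1 cytokine Ifng was at 7.54, 7.52, 7.21 and 7.42 in e_iTreg and at 9.16, 8.83, 8.18 and 8.01 in iTreg, without overlap, and rose by 1.12 ± 0.21. The IL-12 receptor chain Il12rb1 (0.99 ± 0.18), the chemokine receptor Cxcr6 (1.45 ± 0.23), the transcription factor Runx3 (0.66 ± 0.13) and the IL-18 receptor chains Il18r1 (0.81 ± 0.23) and Il18rap (0.94 ± 0.27) rose as well, though the last 2 calls ended without e_iTreg replicate 3 or 4 or iTreg replicate 1 or 3 (up to 0.12 and 0.124). Ifngr2, the signalling chain of the interferon gamma receptor, went the other way and fell by 1.16 ± 0.20 (adjusted p = 0.00296).

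Other helper lists had smaller median differences than the Th1 list: 0.15 for type 2, 0.01 for type 17 and -0.19 for follicular Treg. Their shares of calls stood above those of all genes, 6.61% up and 4.88% down, except that no type 2 gene fell. Of 11 type 2 genes 3 rose: the chemokine receptor Ccr4 (1.47 ± 0.28), the cytokine Il4 (0.80 ± 0.19, from a dim probe set) and the hypoxia factor Epas1 (0.86 ± 0.23). The type 2 master factor Gata3 did not pass on either of its probe sets (0.19 ± 0.13 and -0.21 ± 0.11). Of 13 type 17 genes the transcription factors Ahr (0.80 ± 0.19) and Batf (0.65 ± 0.17) and the IL-1 receptor Il1r1 (0.62 ± 0.19) rose, and Il6ra (-0.73 ± 0.12) and Ccr6 (-0.74 ± 0.13) fell. Il17a was at -0.09 ± 0.11 and did not pass. In the follicular Treg list 3 of 14 rose (Icos, Sh2d1a at 0.54 ± 0.12 and Slamf6 at 0.42 ± 0.13, its second probe set at 0.47 ± 0.19 not passing) and 3 fell (Bcl6, Tox at -0.45 ± 0.13 and Il6st at -0.63 ± 0.15). Bcl6, the transcription factor of follicular cells, was at 8.17, 7.94, 8.08 and 8.31 in e_iTreg and at 7.13, 7.07, 7.42 and 7.20 in iTreg and fell by 0.92 ± 0.14 without overlap (adjusted p = 0.00129), while its homing receptor partner Cxcr5 did not pass (-0.47 ± 0.18). Ahr lost its call without e_iTreg replicate 3 (0.0519), Il6st without e_iTreg replicate 3 or 4 or iTreg replicate 1 (0.0592), and Epas1 (0.0886), Il1r1 (0.129), Slamf6 (0.127) and Tox (0.113) when any 1 of several arrays was left out.

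Gzmb, a serine protease of cytotoxic granules that effector Treg use as well, rose more than any other named gene. It was at 7.92, 9.52, 7.54 and 7.33 in e_iTreg and at 12.07, 11.95, 11.75 and 12.75 in iTreg, so that even the highest e_iTreg array, replicate 2, lay below the lowest iTreg array. The difference was 4.05 ± 0.53, or 16.6-fold (adjusted p = 0.000835). In the cytotoxic granule list 8 of 23 members rose (34.8%) and 3 fell (13.0%), beside 6.61% and 4.88% of all genes, with a median of 0.29. Nkg7, a granule membrane protein, was at 9.04, 9.42, 9.39 and 9.02 in e_iTreg and at 11.15, 11.16, 10.62 and 10.90 in iTreg and rose by 1.74 ± 0.17 (adjusted p = 0.000116). Gzma rose by 1.99 ± 0.33, Gzmk by 0.52 ± 0.10, the granzyme-activating protease Ctsc by 0.67 ± 0.12, and the granzyme B inhibitor Serpinb9 by 0.55 ± 0.12. The falls were the death ligand Fasl (-0.62 ± 0.15), the lysosomal protease Ctsw (-0.46 ± 0.12) and the lysosomal membrane protein Lamp1 (-0.38 ± 0.10). Calls ended for Ctsw (0.0654) without e_iTreg replicate 4 or iTreg replicate 1 or 3, and for Lamp1 (0.073) when any 1 of 5 arrays was left out. Fasl lost its call with the plasma cell marker mean as a covariate and without the arrays of 1 sex. In either of these fits 5 members of the list were higher and none lower. After median centring 1 member was lower, and 1 with the Y-linked covariate. Cd8a, the CD8 coreceptor chain, was at 6.15, 6.68, 6.32 and 5.58 in e_iTreg and at 7.05, 5.93, 6.53 and 5.65 in iTreg, which overlapped and gave 0.11 ± 0.28. The pore-forming Prf1 was at 0.04 ± 0.11 and did not pass, and neither did the natural killer cell markers Klrb1c (0.01 ± 0.15) and Ncr1 (-0.32 ± 0.15). Of 15 such markers 4 rose, and those 4 were Nkg7, Gzmb, Gzma and Gzmk.

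**Figure D3:**
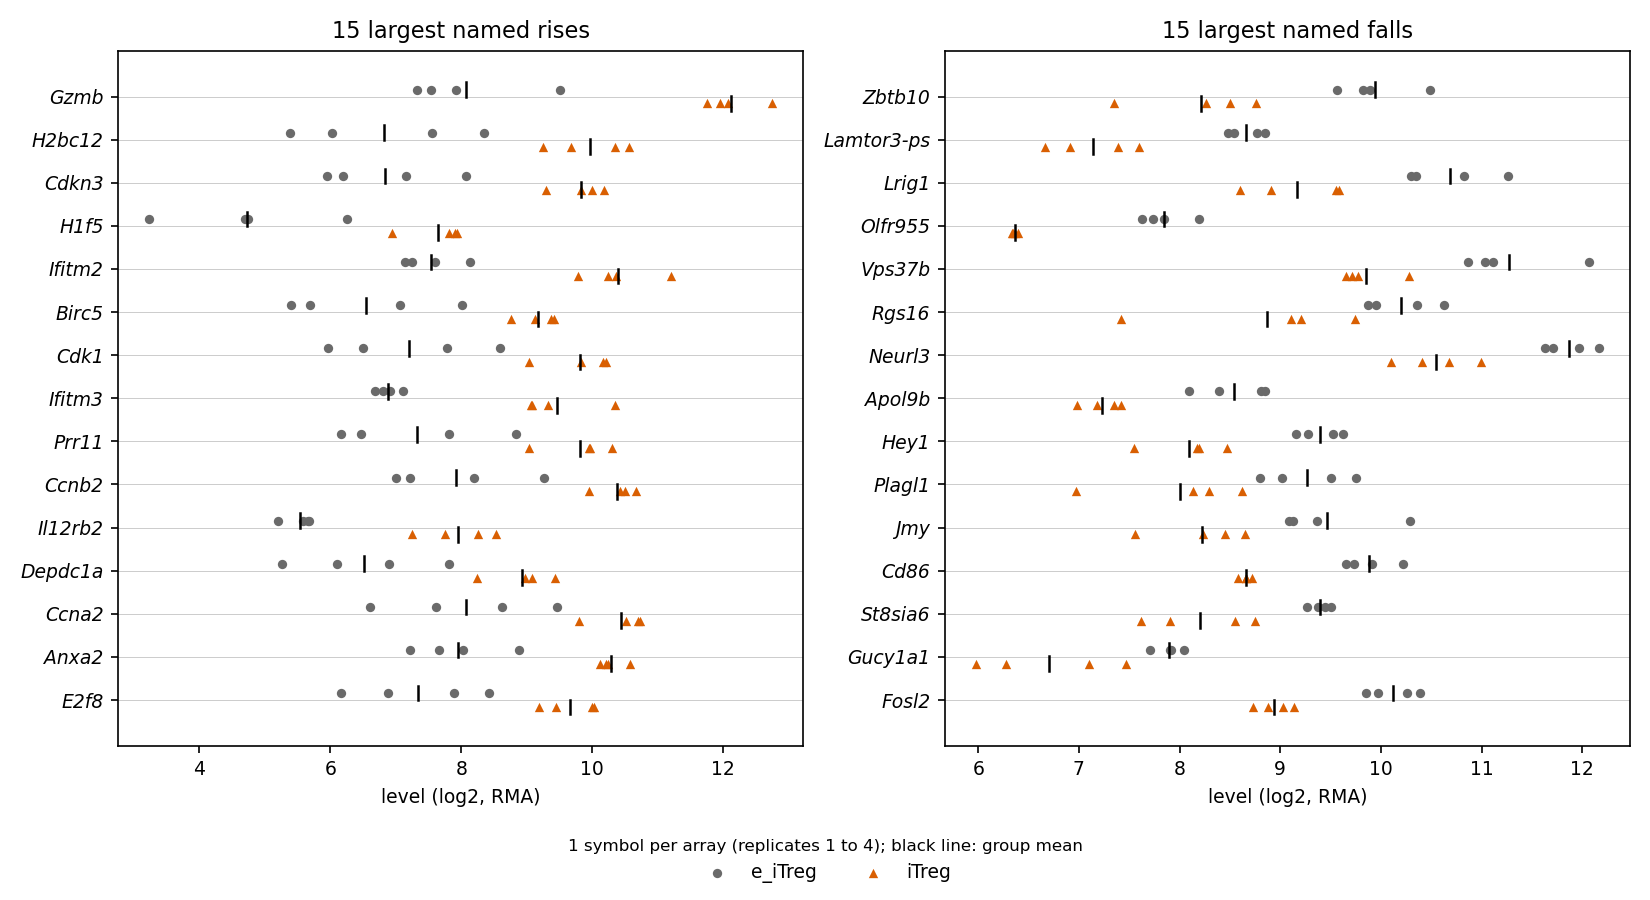
Levels (log2) of the 15 largest rises (left) and the 15 largest falls (right) among named genes; grey circles are the 4 e_iTreg arrays, orange triangles the 4 iTreg arrays and black lines the group means. No gene shown has overlapping groups, and for cell cycle genes such as Cdk1 the e_iTreg arrays spread from 5.96 to 8.59 while iTreg arrays span 9.04 to 10.21.

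Cell division genes rose almost as a block. Of 52 genes of mitosis and cytokinesis 51 rose, with a median of 1.86, and of 37 DNA replication genes 34 rose and none fell, with a median of 1.08. Cdk1, the kinase that starts mitosis, was at 7.78, 8.59, 6.49 and 5.96 in e_iTreg and at 10.21, 9.83, 10.17 and 9.04 in iTreg. Its e_iTreg arrays spread over more than 2 log2 units and all lay below the iTreg arrays, and Cdk1 rose by 2.61 ± 0.54 (adjusted p = 0.0065). Its cyclin partner Ccnb2 was at a mean of 7.92 ± 1.04 (SD, n = 4) in e_iTreg and 10.38 ± 0.31 in iTreg and rose by 2.46 ± 0.46. Cdkn3, a phosphatase that acts on cyclin-dependent kinases, was at a mean of 6.84 ± 0.97 (SD, n = 4) in e_iTreg and 9.83 ± 0.39 in iTreg and rose by 2.99 ± 0.44, or 7.93-fold. Birc5 (survivin, of the chromosomal passenger complex) rose by 2.63 ± 0.52, the S phase and mitotic cyclin Ccna2 by 2.36 ± 0.57, the spindle protein Hmmr by 2.27 ± 0.32 and the midzone protein Prc1 by 2.19 ± 0.32. Prr11 and Depdc1a, both cell cycle genes, and E2f8, a repressor of the E2F family, rose by 2.50 ± 0.59, 2.42 ± 0.58 and 2.33 ± 0.45. The exception was Smc4, a condensin subunit, which fell by 0.34 ± 0.10 with an adjusted p of 0.0473, a call that ended in 17 of the 26 other settings run, while its partner Smc2 rose by 1.60 ± 0.26. Ccna2 (0.0565), Prr11 (0.0579) and Depdc1a (0.0534) lost their calls without e_iTreg replicate 3 or 4.

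In the replication list the helicase subunits Mcm7, Mcm2 and Mcm3 rose by 1.25 ± 0.17, 1.11 ± 0.16 and 1.33 ± 0.19. Mcm7 was at 7.94, 8.27, 7.57 and 7.81 in e_iTreg and at 9.16, 9.03, 9.50 and 8.90 in iTreg, with no overlap and a narrower range in e_iTreg than Cdk1. The origin factors Gins1 and Gins2 rose by 1.60 ± 0.22 and 1.05 ± 0.14, the chromatin assembly subunit Chaf1b by 1.33 ± 0.19 and thymidine kinase Tk1 by 0.91 ± 0.13. Of 13 histone genes transcribed in S phase 7 rose and none fell, among them H2bc12 (3.14 ± 0.61) and the linker histone H1f5 (2.92 ± 0.54). Histone genes have near-identical copies that an array cannot fully separate, so these 2 values are uncertain. The histone rises numbered 4 without e_iTreg replicate 4, 4 without iTreg replicate 3 and 4 with the Y-linked covariate. Among inhibitors of the cell cycle 9 of 29 fell and 3 rose. The falls included the antiproliferative genes Btg1 (-0.53 ± 0.10) and Btg2 (-0.62 ± 0.12), the kinase inhibitor Cdkn1b (-0.47 ± 0.11) and Pik3ip1, an inhibitor of PI3 kinase (-0.73 ± 0.12). The rises were Rbl1 (0.77 ± 0.13), Cdkn2d (0.80 ± 0.14) and Cdkn2c (0.84 ± 0.22); the last call ended without e_iTreg replicate 1 or 4 or iTreg replicate 1 (0.0636). After median centring 6 of the inhibitors were lower.

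The e_iTreg arrays differed among themselves in this programme. The mean of the mitosis list was at 7.73, 8.25, 6.98 and 6.80 in e_iTreg and at 9.57, 9.07, 9.50 and 8.63 in iTreg. Replicate 2 of e_iTreg was nearest to iTreg, and replicates 3 and 4 lay lowest. Leaving out that replicate 2 gave 51 mitotic rises, and the fewest, 43, came without replicate 3.

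Promoter windows show which sequences the dividing-cell genes share. RefSeq windows of 300 bases (250 before and 50 after the annotated start, GRCm38.p6) were found for 42 of the 52 mitosis genes, 32 of the 37 replication genes and 16990 of all genes tested, and a gene counted if any of its starts held the letters on either strand, overlaps allowed. CCAAT, the core of sites for the factor NF-Y, and TTTGAA, a form of the cell cycle genes homology region, occurred together in 27 mitosis windows (64.3%) and in 7.13% of all windows. Alone, CCAAT was in 69.0% of mitosis windows and 41.6% of all, and TTTGAA in 78.6% and 17.8%. The E2F letters TTTCCCGC or TTTGGCGC were in 11 replication windows (34.4%), 2 mitosis windows (4.76%) and 2.37% of all. These are matches of letters and not sites of binding. The bases before the start of 3 mitotic genes among the largest rises and of Mcm6, a helicase subunit that rose by 0.76 ± 0.17, are printed 5′ to 3′, with CCAAT and TTTGAA, read on either strand, in capitals; in Mcm6 the capitals mark TTTGGCGC.
Cdk1, chr10:69352913-69353072, minus strand: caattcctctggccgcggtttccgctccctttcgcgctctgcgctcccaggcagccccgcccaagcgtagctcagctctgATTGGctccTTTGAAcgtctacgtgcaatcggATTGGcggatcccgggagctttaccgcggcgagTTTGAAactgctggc
Ccnb2, chr9:70421555-70421734, minus strand: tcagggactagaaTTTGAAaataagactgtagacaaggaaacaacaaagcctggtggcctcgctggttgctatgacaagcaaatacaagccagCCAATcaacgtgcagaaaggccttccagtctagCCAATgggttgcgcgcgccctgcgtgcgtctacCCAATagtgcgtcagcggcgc
Cdkn3, chr14:46760381-46760540, plus strand: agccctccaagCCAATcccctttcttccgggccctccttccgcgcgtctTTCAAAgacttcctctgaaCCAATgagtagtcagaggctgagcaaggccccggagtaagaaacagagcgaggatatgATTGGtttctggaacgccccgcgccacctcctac
Mcm6, chr1:128359706-128359835, minus strand: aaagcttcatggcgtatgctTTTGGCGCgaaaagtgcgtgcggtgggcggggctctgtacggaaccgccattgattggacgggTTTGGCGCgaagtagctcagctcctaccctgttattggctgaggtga
The printed part of Ccnb2 holds CCAAT 3 times and that of Cdkn3 3 times, while Cdk1 holds 2 copies each of CCAAT and TTTGAA.

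Genes of energy and protein supply rose in part. Rises numbered 32 among 60 genes of oxidative phosphorylation, with no fall (median 0.38), of 36 mitochondrial ribosomal protein genes 18 rose (median 0.37), and of 36 proteasome genes 28 rose (median 0.45). Cox5a, a subunit of complex IV, was at 9.75, 10.22, 10.09 and 9.70 in e_iTreg and at 10.91, 10.88, 10.67 and 10.83 in iTreg. The changes were small beside those of the cell cycle but the arrays of a group lay close, and Cox5a rose by 0.88 ± 0.12 (adjusted p = 0.000886). Psmb5, a catalytic subunit of the proteasome, was at 10.45, 10.81, 10.59 and 10.50 in e_iTreg and at 11.25, 11.41, 11.31 and 11.35 in iTreg and rose by 0.74 ± 0.10. Sdhb of complex II rose by 0.70 ± 0.10 and Mrpl18 of the mitochondrial ribosome by 0.71 ± 0.10. Of 20 genes of glycolysis and the pentose phosphate path 8 rose, led by the enzymes Tpi1 (1.30 ± 0.17), Pgk1 (1.12 ± 0.16) and Taldo1 (0.81 ± 0.11). In the cytosolic chaperonin 3 of 8 subunits rose, Tcp1 (0.58 ± 0.11, its second probe set at 0.44 ± 0.14 not passing), Cct5 (0.36 ± 0.09) and Cct8 (0.39 ± 0.10), and of 27 ribosome biogenesis genes 3 rose, Nhp2 (0.44 ± 0.12), Wdr12 (0.50 ± 0.11) and Bysl (0.44 ± 0.10). Calls ended for Cct5 (0.0631), Cct8 (0.0697) and Nhp2 (0.0908) without e_iTreg replicate 1 or iTreg replicate 1 or 3, and for Cct8 also without e_iTreg replicate 3 and Nhp2 without e_iTreg replicate 4. Mitochondrial ribosomal rises numbered 11 without e_iTreg replicate 1, 12 without replicate 3 and 11 without replicate 4. Cytosolic ribosomal proteins had 2 rises among 36 (median -0.07), a share near that of all genes, and their median turned to 0.02 after median centring. With the Y-linked covariate 17 oxidative phosphorylation and 20 proteasome genes were higher, and with the plasma cell marker mean, a covariate added after seeing the data, 14 and 11.

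Of 26 genes of cholesterol and fatty acid synthesis 13 rose and none fell, with a median of 0.43. Fdps, which makes farnesyl diphosphate, was at 7.63, 8.18, 7.41 and 8.05 in e_iTreg and at 9.19, 8.88, 9.32 and 9.36 in iTreg and rose by 1.37 ± 0.16 (adjusted p = 0.000711). Sqle, the squalene epoxidase, was at 7.30, 7.73, 7.42 and 7.72 in e_iTreg and at 8.79, 8.34, 8.70 and 8.60 in iTreg and rose by 1.06 ± 0.13. In both the groups were apart, and the rises went on along the path with Mvd (0.72 ± 0.12), Fdft1 (0.49 ± 0.09), Ebp (0.79 ± 0.14) and Msmo1 (0.56 ± 0.10). Of 30 genes of protein folding in the endoplasmic reticulum 11 rose and 2 fell. The chaperone partner Sdf2l1 rose by 1.55 ± 0.21 and the chaperone Hsp90b1 by 0.87 ± 0.17, while the cochaperone Dnajb9 fell by 0.49 ± 0.11. Creld2 of this list was at 9.27, 9.38, 9.11 and 8.86 in e_iTreg and at 9.89, 9.57, 9.87 and 11.17 in iTreg, with iTreg replicate 4 highest. The plasma cell marker mean, which includes Creld2 itself, was highest in the same array. With that mean as a covariate 3 members were higher. A mean built in part from this list cannot tell plasma cells from the list's own members. The number of higher members was 6 without iTreg replicate 4. That count was also 5 without e_iTreg replicate 1 and 6 without e_iTreg replicate 3 or 4, and 7 without iTreg replicate 3. Creld2 itself lost its call without e_iTreg replicate 1, 3 or 4 (0.0854).

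Of 28 type I interferon response genes 10 rose and none fell, with a median of 0.32. Ifitm3, a membrane protein that blocks virus entry, was at 6.68, 7.11, 6.92 and 6.81 in e_iTreg and at 9.09, 9.33, 9.07 and 10.35 in iTreg. All iTreg arrays were more than 1 log2 unit above the highest e_iTreg array, and Ifitm3 rose by 2.58 ± 0.22, or 5.97-fold (adjusted p = 0.000116). Its neighbour in the family, Ifitm2, was at 7.60, 8.14, 7.14 and 7.25 in e_iTreg and at 10.37, 10.25, 9.79 and 11.21 in iTreg and rose by 2.87 ± 0.27, and Ifitm1 by 1.11 ± 0.27. The 3 genes are close in sequence, so their values may share signal. The antiviral Oas3 was at 7.61, 7.69, 7.43 and 7.49 in e_iTreg and at 8.69, 8.47, 8.69 and 8.94 in iTreg, with a tight spread, and rose by 1.14 ± 0.11, and the nucleotide kinase Cmpk2 rose by 1.24 ± 0.17. Isg15 was at 7.80, 8.09, 8.07 and 7.63 in e_iTreg and at 8.23, 8.76, 8.45 and 9.44 in iTreg, with the e_iTreg and iTreg arrays nearly touching, and rose by 0.82 ± 0.23. The list mean was at 8.14, 8.15, 8.21 and 8.07 in e_iTreg and at 8.54, 8.55, 8.55 and 9.15 in iTreg, and iTreg replicate 4 stood apart from the other 3. Without that array 7 members were higher, 6 without e_iTreg replicate 4, and Ifitm3 was at 2.28 without iTreg replicate 4. Ifitm1 lost its call without e_iTreg replicate 4 (0.0513), and Isg15 (0.0889) when any 1 of 5 arrays was left out. After median centring 15 members were higher. With the Y-linked covariate 5 were higher, with the plasma cell marker mean 4, and without the arrays of 1 sex 6. The core of the interferon-stimulated response element, searched on both strands as 2 copies of GAAA with any 2 bases between them, was in 3.87% of all windows. The bases before the start of Ifitm2 hold it once, here in capitals; the share over the list is not given, since 22 of its 28 genes had a window.
Ifitm2, chr7:140955962-140956061, minus strand: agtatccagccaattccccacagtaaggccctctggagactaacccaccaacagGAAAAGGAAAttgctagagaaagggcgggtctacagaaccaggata

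Genes of resting T cells were lower. Of 16 members 8 fell and none rose, with a median of -0.48, against 4.88% of all genes that fell. Ccr7, which guides T cells into lymph nodes, was at 10.71, 10.63, 10.92 and 11.27 in e_iTreg and at 9.63, 9.59, 9.71 and 9.90 in iTreg and fell by 1.17 ± 0.22 (adjusted p = 0.00438). Bach2, a repressor that keeps T cells from effector fates, was at a mean of 9.87 ± 0.27 (SD, n = 4) in e_iTreg and 8.82 ± 0.24 in iTreg. Neither gene had overlapping groups, and Bach2 fell by 1.05 ± 0.15 (adjusted p = 0.00114). Lrig1, which restrains growth factor receptors, was at 10.83, 10.29, 10.35 and 11.26 in e_iTreg and at 8.91, 9.56, 9.58 and 8.60 in iTreg and fell by 1.52 ± 0.27. The transcription factor Foxp1 fell by 0.77 ± 0.12, the IL-7 receptor chain Il7r by 0.66 ± 0.13, and Bcl2, which protects from cell death, by 0.71 ± 0.16, while a second Bcl2 probe set did not pass (-0.37 ± 0.14, adjusted p = 0.0988). Lef1 (-0.33 ± 0.12) and Klf2 (-0.49 ± 0.17) did not pass. The list's falls numbered 5 with the Y-linked covariate, 5 with the plasma cell marker mean and 5 without the arrays of 1 sex. Bcl2 lost its call in each of these fits.

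Of 25 TGF-beta pathway genes 11 fell and 1 rose. Smad7, the inhibitory Smad that the pathway itself induces, was at 10.81, 10.59, 10.11 and 10.94 in e_iTreg and at 9.73, 9.39, 9.52 and 9.21 in iTreg and fell by 1.15 ± 0.19 (adjusted p = 0.00198). Ldlrad4, another inhibitor of the pathway, was at 10.38, 10.18, 10.47 and 10.47 in e_iTreg and at 9.37, 9.44, 9.56 and 9.10 in iTreg. The groups were apart for both, and Ldlrad4 fell by 1.01 ± 0.13. The corepressors Tgif1 (-0.92 ± 0.18) and Skil (-0.89 ± 0.27) fell, as did Itgb8, an integrin chain that releases active TGF-beta (-0.65 ± 0.15), and Lrrc32. The ubiquitin ligase Smurf1 fell by 0.46 ± 0.11 and the shared signal transducer Smad4 by 0.32 ± 0.10. The ligand Tgfb3 rose by 1.16 ± 0.21. The list's falls were 5 after median centring, 5 without e_iTreg replicate 4, 5 without iTreg replicate 1, 6 without e_iTreg replicate 1, 6 without iTreg replicate 4 and 7 without iTreg replicate 2 or eTreg replicate 1 or 2. They numbered 3 with the plasma cell marker mean as a covariate, 4 without the arrays of 1 sex and 5 with the Y-linked covariate. Skil (0.137) and Smad4 (0.139) lost their calls in most of the fits without 1 array.

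Genes induced early after stimulation of the T cell receptor were lower too: 12 of 31 fell and none rose, with a median of -0.38. Nr4a1, a nuclear receptor gene that reports receptor signals, was at 12.74, 12.55, 12.21 and 12.69 in e_iTreg and at 11.88, 11.57, 11.59 and 11.84 in iTreg and fell by 0.83 ± 0.18 (adjusted p = 0.00851). Its relatives Nr4a3 and Nr4a2 fell by 0.99 ± 0.21 and 1.12 ± 0.28. Zfp36l1, which speeds the decay of messenger RNA, was at 12.08, 12.20, 12.02 and 12.32 in e_iTreg and at 11.10, 11.38, 11.44 and 11.31 in iTreg, well apart between groups, and fell by 0.85 ± 0.11. The AP-1 members Junb and Fosl2 fell by 0.56 ± 0.12 and 1.18 ± 0.28, and the phosphatases Dusp10 and Dusp5 by 1.05 ± 0.18 and 0.62 ± 0.15. Of 17 NF-kB genes 6 fell and 1 rose. Rel, the subunit c-Rel that Treg formation needs, was at 12.28, 12.21, 12.36 and 12.44 in e_iTreg and at 11.68, 11.80, 11.56 and 11.42 in iTreg and fell by 0.70 ± 0.14 without overlap. The kinase Map3k14 fell by 0.73 ± 0.15 and the feedback inhibitor Tnfaip3 by 0.47 ± 0.13, while Bcl3 rose by 0.46 ± 0.10, and the call of Tnfaip3 (0.0875) ended when any 1 of 6 arrays was left out. After median centring 3 NF-kB genes were lower, and 3 without e_iTreg replicate 4. With the Y-linked covariate 5 early genes and 2 NF-kB genes were lower.

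**Figure D4:**
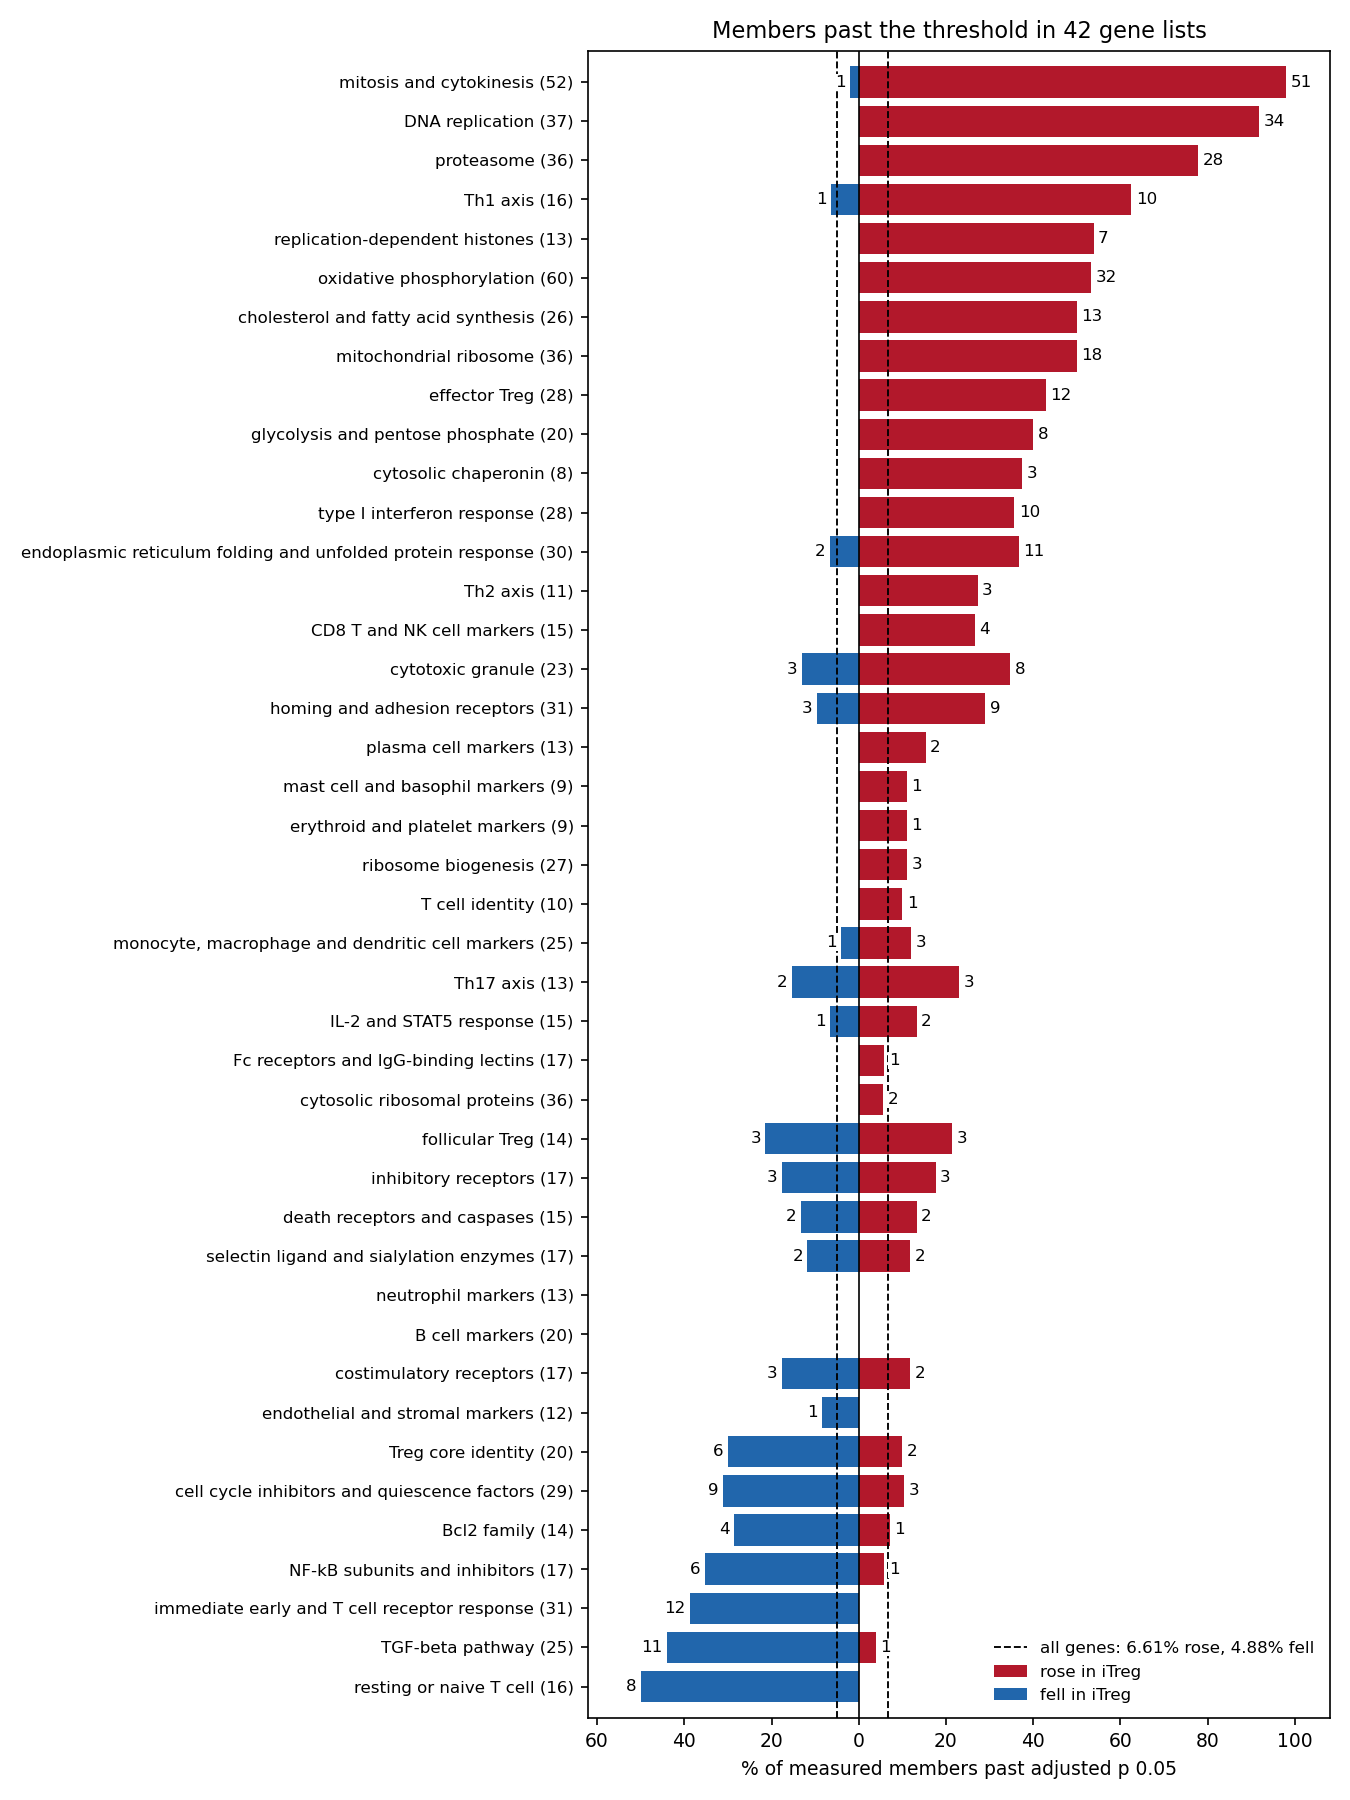
For each of 42 gene lists (measured members in brackets) the red bar is the percentage of members that rose and the blue bar the percentage that fell, with the number of genes at the end of each bar; dashed lines mark the 6.61% and 4.88% of all genes. The mitosis list has the longest red bar (51 of 52 genes) and the resting T cell list the longest blue one (8 of 16).

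The largest falls of single genes lay partly outside these lists. Zbtb10, a zinc finger gene, was at 9.82, 9.89, 9.56 and 10.48 in e_iTreg and at 8.26, 8.76, 8.50 and 7.34 in iTreg and fell by 1.72 ± 0.29, or 3.3-fold (adjusted p = 0.00227). Olfr955, an olfactory receptor gene, was at 7.85, 7.62, 7.74 and 8.19 in e_iTreg and at 6.35, 6.39, 6.34 and 6.36 in iTreg. Its iTreg arrays were almost equal, and it fell by 1.49 ± 0.14 (adjusted p = 0.000116), with e_iTreg above eTreg by 0.66 ± 0.14, which did not pass. Vps37b, of the sorting complex ESCRT-I, fell by 1.42 ± 0.30, Rgs16, which shortens G protein signals, by 1.33 ± 0.38, and the ubiquitin ligase Neurl3 by 1.32 ± 0.17. Hey1, a repressor induced by Notch, fell by 1.30 ± 0.23, the actin nucleator Jmy by 1.24 ± 0.35 and the guanylate cyclase subunit Gucy1a1 by 1.19 ± 0.24. Apol9b (-1.30 ± 0.17) and the pseudogene Lamtor3-ps (-1.52 ± 0.19) have close copies, and their values are uncertain. The calls of Rgs16 (0.101) and Jmy (0.0964) ended when any 1 of several arrays was left out, e_iTreg replicate 4 among them.

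Receptors of migration changed in both directions, 9 of 31 up (29.0%) and 3 down (9.68%), beside 6.61% and 4.88% of all genes. Ccr2, a receptor for inflammatory chemokines, was at 6.75, 7.74, 6.25 and 6.06 in e_iTreg and at 8.75, 7.85, 8.50 and 9.29 in iTreg and rose by 1.90 ± 0.39, with the highest e_iTreg array (replicate 2) close to the lowest iTreg array (replicate 2). Gpr15, which directs T cells to the gut, rose by 1.46 ± 0.23, the collagen-binding integrin chain Itga2 by 1.33 ± 0.29 and the sphingosine receptor S1pr4 by 0.85 ± 0.16, beside Cxcr3, Cxcr6 and Ccr4. The falls were Ccr7, Ccr6 and Itgb8. Of 17 enzymes of selectin ligands and sialylation 2 rose and 2 fell (11.8% each). Fut7 (0.99 ± 0.18) and Gcnt1 (0.99 ± 0.19), which build selectin ligands, rose. St8sia6 was at 9.50, 9.26, 9.37 and 9.44 in e_iTreg and at 7.90, 8.75, 8.55 and 7.62 in iTreg and fell by 1.19 ± 0.21, and St6gal1, a sialyltransferase, fell by 0.33 ± 0.10, a call that ended in most of the fits without 1 array (0.0863). Of 17 Fc receptors and IgG-binding lectins 1 rose, galectin-3 (Lgals3, 1.04 ± 0.21), a share (5.88%) near that of all genes. Cd209a, the mouse relative of DC-SIGN, was at 10.93, 11.05, 11.36 and 11.19 in e_iTreg and at 9.42, 11.04, 10.47 and 8.92 in iTreg, with iTreg replicates 1 and 4 low and replicate 2 at the level of e_iTreg, and did not pass (-1.17 ± 0.48, adjusted p = 0.137).

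Among costimulatory receptors 2 of 17 rose (11.8%) and 3 fell (17.6%), beside 6.61% and 4.88% of all genes. Cd86, a ligand of Ctla4 and Cd28, was at 9.73, 9.65, 9.91 and 10.21 in e_iTreg and at 8.66, 8.66, 8.72 and 8.58 in iTreg, with nearly equal values over the iTreg arrays, and fell by 1.22 ± 0.15 (adjusted p = 0.000711). Its relative Cd80 rose by 0.83 ± 0.19. The TNF receptor family member Tnfrsf25 (-0.40 ± 0.11) and Cd84 (-0.49 ± 0.10) fell. Among inhibitory receptors 3 of 17 rose and 3 fell (17.6% each). Lair1, a collagen receptor, rose by 1.08 ± 0.16, together with Havcr2 and Lag3. Cd96 fell by 0.98 ± 0.15, and Cd160 (-0.35 ± 0.10) and Nt5e fell as well. Pdcd1 (-0.24 ± 0.20) and Tigit (0.90 ± 0.31) did not pass. In the Bcl2 family 4 of 14 members fell, Bcl2 and the death-promoting Bcl2l11 (-0.69 ± 0.13), Bbc3 (-0.57 ± 0.12) and Hrk (-0.62 ± 0.16), and 1 rose, the pore former Bak1 (0.77 ± 0.14). These were 28.6% and 7.14% of the list, the share that rose being near that of all genes. Among 15 death receptor and caspase genes Casp1 (0.61 ± 0.18) and Apaf1 (0.62 ± 0.15) rose and Fasl and Tnfrsf10b (-0.74 ± 0.23) fell, 13.3% in each direction. Of 15 genes of the IL-2 and STAT5 response Socs2 and Cdk6 (0.64 ± 0.17) rose and Bcl2 fell, 13.3% and 6.67% of the list. Calls ended when any 1 of several arrays was left out for Tnfrsf25 (0.0908), Cd160 (0.092), Casp1 (0.119), Tnfrsf10b (0.135) and Cdk6 (0.0779), and for Hrk (0.067) without e_iTreg replicate 3 or iTreg replicate 3.

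Markers of other cells were measured beside these results. None of 20 B cell markers passed, and their mean was at 8.25, 8.50, 7.99 and 6.65 in e_iTreg and at 8.12, 7.69, 7.83 and 8.02 in iTreg, with e_iTreg replicate 4 far below the other 7 arrays. Their median difference was 0.10, and -0.47 without that array. Cd79b was at 0.25 ± 0.27 and Pax5 at -0.17 ± 0.38. Of 13 plasma cell markers 2 rose, Prdm1 and Creld2, which other lists hold too. The plasma list mean was at 7.67, 7.73, 7.68 and 7.40 in e_iTreg and at 8.09, 7.74, 7.92 and 9.34 in iTreg. Its median difference of 0.62 became 0.19 without iTreg replicate 4. Jchain, the joining chain of secreted antibody, was at 6.94, 6.55, 6.43 and 5.42 in e_iTreg and at 8.18, 6.67, 7.16 and 11.69 in iTreg, highest in iTreg replicate 4, and differed by 2.09 ± 0.81 (adjusted p = 0.117). Of 25 myeloid markers 3 rose, the integrin chain Itgam (1.71 ± 0.29), Bst2 (0.71 ± 0.19) and Cst3 (0.47 ± 0.13), and Siglech fell by 0.45 ± 0.12. The second probe set of Cst3 gave -0.02 ± 0.13 (adjusted p = 0.926), so that rise rests on 1 probe set. Their median difference of 0.38 became -0.01 without iTreg replicate 4. None of 13 neutrophil markers passed, with a mean at 6.13, 6.19, 6.60 and 5.77 in e_iTreg and at 6.48, 6.42, 6.29 and 7.42 in iTreg. Among the remaining markers of other lineages Car2 of 9 erythroid and platelet genes (0.67 ± 0.18) and Mcpt8 of 9 mast cell and basophil genes (0.75 ± 0.20) rose, and Pecam1 of 12 endothelial and stromal genes (-0.35 ± 0.09) fell. Calls ended when any 1 of several arrays was left out for Bst2 (0.072), Cst3 (0.0934), Siglech (0.0883), Car2 (0.0991), Mcpt8 (0.0798) and Pecam1 (0.0813). Beyond the fits with marker means, the part of other cells in the changes above was not tested.

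**Figure D5:**
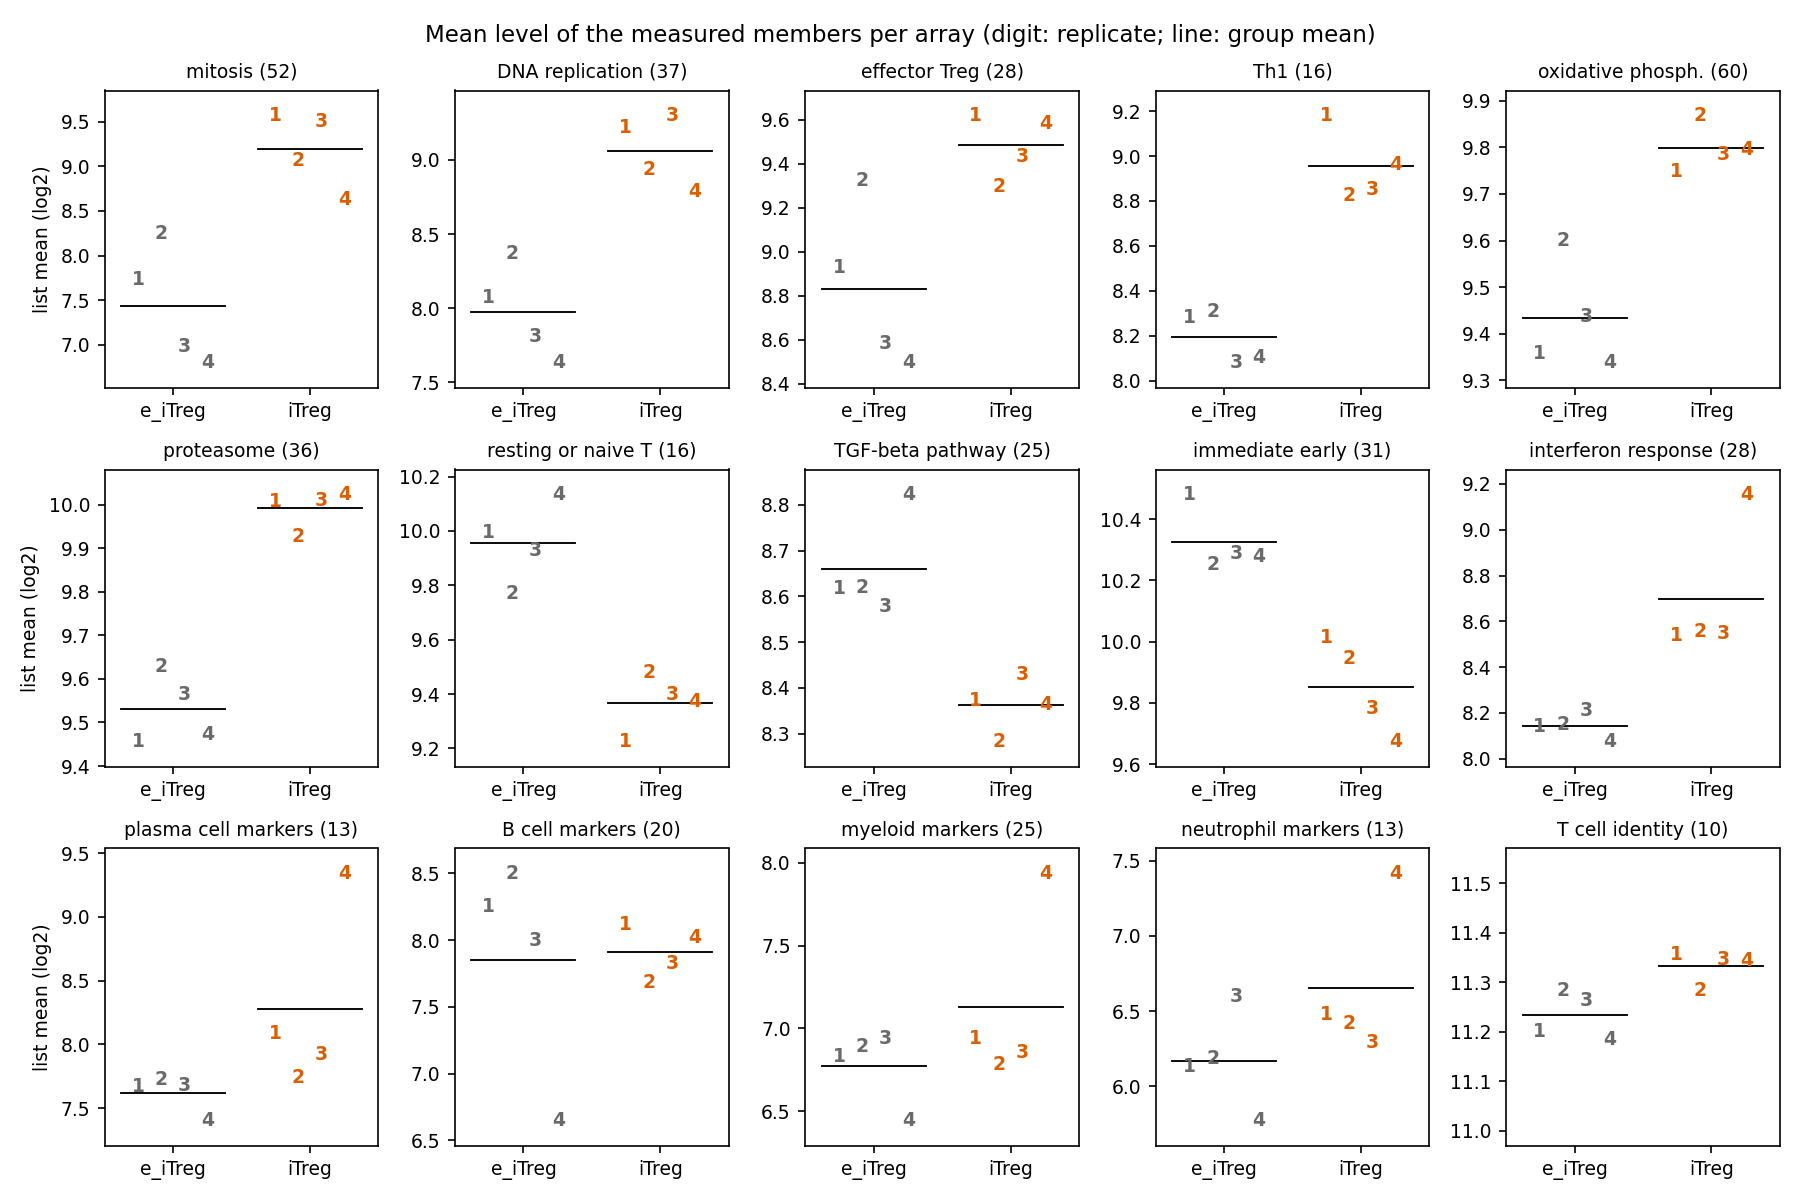
Mean level (log2) of the measured members of 15 gene lists in each of the 8 arrays; digits are replicate numbers, grey for e_iTreg and orange for iTreg, lines are group means, and each panel has its own y axis. In the mitosis panel e_iTreg replicate 2 lies nearest iTreg, and in the interferon, plasma cell, myeloid and neutrophil panels iTreg replicate 4 is the highest array.

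The same iTreg arrays were also set against eTreg, the HSA group without DTx. The comparisons share those 4 iTreg arrays, so their values are given side by side and not as separate evidence. Against eTreg 5.46% of genes rose and 4.76% fell. The mitosis list had 51 rises and a median of 1.95 against eTreg, beside 51 and 1.86 against e_iTreg. For effector Treg genes the counts were 14 and 12, for Th1 genes 10 and 10, for interferon genes 7 and 10, and for proteasome genes 26 and 28. Falls in the resting list numbered 11 and 8, in the TGF-beta list 11 and 11, and in the early list 9 and 12. Gzmb was higher by 4.18 ± 0.53 against eTreg and Ikzf4 lower, at -1.04 ± 0.14. The difference between the comparisons is the contrast e_iTreg minus eTreg, in which limma called 0 of 23521 probe sets at an adjusted p of 0.05, with 1649 (7.01%) at an unadjusted p under 0.05 and a smallest adjusted p of 0.223.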

How the data were processed

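The authors deposited log2 expression values from Affymetrix mouse arrays, summarised by RMA with oligo, per the submitters' processing notes; their versions are not given in the sources used here. RMA corrects background, quantile-normalizes the arrays and fits probes to probe sets, so a change shared by most genes is removed before deposit. The number of arrays limits the precision.

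Of 41345 rows, 23521 carried 1 gene symbol in GEO's platform annotation (22180 genes), 1814 several and 16010 none; only the first were tested, and 23328 had a gene number in RefSeq. One model over the 12 arrays was fitted with limma 3.58.1 (lmFit and eBayes, R 4.3.3; two-sided; Benjamini-Hochberg). All p-values in the text are from limma. Counts by gene took the probe set with the highest mean; 3 of 1082 genes with several probe sets had opposite calls. The fit was tested on simulated data with independent noise of equal spread in every array. That test does not cover the outlying arrays or markers of other cells described above.

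The comparison, the 43 gene lists (925 of 1031 members matched) and the promoter letters were chosen with earlier results of these data known. Named genes are the 15 largest rises and falls, leaving out predicted genes, clones and receptor segments, up to 5 members of each list by p, and Foxp3, Il2ra, Ctla4, Ikzf2, Nrp1 and defining markers of other cells; further list members were named after their values were seen. Alternatives changed the normalization, filters, threshold, probe set rule, eBayes options, covariates, replicate block and arrays.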

Additional observations from a re-analysis of the deposited data

Results flagged for a closer look

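Within each group of 4 arrays the highest or lowest array was set against the spread of the group for the named genes and list means. Of 480 group values tested 23 had an array far from the other 3, and chance alone gives about 1 in 20.

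Replicate 4 of iTreg was far above the others for the interferon list mean (9.15), the myeloid marker mean (7.94), the neutrophil marker mean (7.42), Ifitm1 (8.30) and Mvd (8.89), and far below for H1f5 (6.94). Replicate 2 of iTreg was far below the others for the T cell identity mean (11.28), Cd4 (10.38), Rbl1 (9.70), Siglech (5.82) and Tpi1 (10.19), and replicate 3 for Ebp (10.47) and Hrk (4.54).

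Replicate 4 of e_iTreg was far from the others for Xist (5.82), Gata3 (8.57), Fdft1 (9.25) and the TGF-beta list mean (8.82). Replicate 3 of e_iTreg was far from the others for Car2 (5.17) and the mast cell and basophil marker mean (5.60), replicate 2 for Ebp (10.28) and the mitochondrial ribosome mean (8.16), and replicate 1 for Cd160 (6.35) and the early response mean (10.48).

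Among the 17824 rows with several gene symbols or none, which no comparison above used, 283 were higher and 405 lower in iTreg. The limma p-values were here adjusted over all 41345 rows, with the same threshold of 0.05. Over all those rows that fit gave 1399 higher and 1026 lower.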

How the results depend on the processing

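Of 1526 probe sets higher and 1117 lower in iTreg, the counts were 929 and 448 with the Y-linked mean as a covariate, 682 and 276 with the plasma cell marker mean and 747 and 323 without the arrays of 1 sex (both added after seeing the data), and 812 and 309 at a fold of at least 1.5. Median centring gave 516 lower, and an adjusted p of 0.1 gave 1917 lower. Leaving out each array in turn gave 1019 to 1638 higher and 597 to 1229 lower. The cause of these shifts was not tested. No called probe set changed sign in any setting. Of the 173 named genes past the threshold 93 passed in all 26 settings in which they were tested. The calls that ended most often were those of Skil (18 settings), Smc4 (17), Smad4 (17), Il1r1 (17), Tnfrsf10b (16), St6gal1 (15), Tox (14), Slamf6 (14), Tnfrsf25 (13), Rgs16 (12) and Casp1 (12). With the replicate number as a block 1440 were higher and 954 lower. Deviations of same-numbered iTreg and e_iTreg arrays from their group means correlated at 0.04, -0.15, -0.15 and -0.03. For same-numbered e_iTreg and eTreg arrays the values were 0.16, 0.07, 0.08 and 0.24. No iTreg array correlated best with the e_iTreg array of its own number. The series design gives no pairing, and with 4 arrays a group these correlations cannot exclude one.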
